A study of Mus musculus with 33 samples.

Results

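The piRNA pathway genes examined here are *Mael*, *Ddx4*, *Piwil1*, *Piwil2*, *Piwil4*, *Tdrd1*, *Tdrd5*, *Tdrd9*, *Asz1* and *Mov10l1*, 10 of the 55487 genes in the deposited tables, chosen by gene name from a list of the pathway. RNA-seq was analysed for 33 libraries of C57BL/6 mouse embryonic stem cells (ESCs) in 11 conditions with 3 libraries each. The study asked how the HP1 proteins, readers of the methylated H3K9 histone mark, and the H3K9 methyltransferase *Setdb1* act in ESCs. The ESCs were grown on mouse embryonic fibroblast feeders. One HP1 gene was lost in *Hp1α* Δ/Δ, in *Hp1β* Δ/Δ and in *Hp1γ* Δ/Δ ESCs, a pair of them in *Hp1α/β* Δ/Δ, in *Hp1α/γ* Δ/Δ and in *Hp1β/γ* Δ/Δ ESCs, and all 3 in *Hp1α/β/γ* Δ/Δ cells, the triple mutant. The other conditions are *wild-type* ESCs in a set A and a set B, *Setdb1* Δ/Δ cells and their control, *Setdb1* F/F ESCs, whose *Setdb1* alleles carry loxP sites. The single and double mutants are constitutive CRISPR/Cas9 knockouts. *Hp1α/β/γ* Δ/Δ cells were made by transfection of *Cre* into *Hp1α/β* Δ/Δ ESCs with floxed *Hp1γ*, and the share of cells that recombined is not given in the sources used here. Set A is the control deposited with each single mutant, with the triple mutant and with *Hp1α/β* Δ/Δ ESCs, and set B that of the other pair of double mutants, so comparisons with the same set share its libraries and are not independent. The study's methods call the libraries of a condition biological replicates, while the labels do not tie them to separate clones or cultures, so p-values measure the spread between these libraries.

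PIWI proteins of germ cells bind piRNAs, small RNAs that guide them to transposon transcripts and, in fetal male germ cells, to transposon loci that become DNA-methylated. *Piwil1*, *Piwil2* and *Piwil4* encode the mouse PIWI proteins MIWI, MILI and MIWI2. Tudor-domain proteins (*Tdrd1*, *Tdrd5*, *Tdrd9*) hold them in germ granules, and the RNA helicases *Ddx4* (the mouse Vasa protein) and *Mov10l1* act in piRNA production. *Mael* (Maelstrom) acts with the nuclear arm of the pathway, and *Asz1* is a germ granule protein at mitochondria. Outside the germ line, promoter DNA methylation, H3K9 methylation and the E2F6- and MGA-containing PRC1.6 complex are known to keep many germline genes off.

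The libraries held 17330992 to 25743193 counts (median 21522605). Values are CPM, counts scaled to the size of a library, and a gene was called changed at an adjusted p below 0.05 together with a log2 fold change above 1 or below -1, in edgeR's quasi-likelihood test of the 6 libraries compared. The log2 fold change (log2 FC) is given ± an approximate standard error, its absolute size divided by the square root of the test's F statistic. All standard errors of log2 fold changes and log2 differences given here are of this kind. They understate the counting error of a large rise from few counts. Each comparison was also fitted with limma on the log2 of the deposited TPM, an alternative chosen after seeing the data, and calls of the 10 genes that differ on that scale are named beside the result. The deleted genes fell in the mutants named for them: the log2 fold change of *Cbx5* (HP1α) was -1.45 in *Hp1α* Δ/Δ ESCs, that of *Cbx1* (HP1β) -2.10 in *Hp1β* Δ/Δ ESCs and that of *Cbx3* (HP1γ) -1.23 in *Hp1γ* Δ/Δ ESCs (-0.96 in TPM). In the triple mutant *Cbx1* fell by 3.27 and *Cbx3* by 1.48 on the log2 scale, whereas *Cbx5* had -0.81, short of the fold threshold, and *Setdb1* had -0.93 in *Setdb1* Δ/Δ cells, also short of it. *Cre* removes internal exons of *Setdb1*, so counts per gene can include transcripts without them. The summed level of 7 ESC markers was 2887 to 2940 CPM over the libraries of set A but 1210 to 1245 CPM in the triple mutant, and it was 5361 to 5413 CPM in *Setdb1* F/F ESCs and 3991 to 4033 CPM in *Setdb1* Δ/Δ cells. One library stood apart, *Hp1α/γ* Δ/Δ replicate 2: the chi-square statistic of its gene counts per degree of freedom was 121.6 against replicate 1 and 113.9 against replicate 3, which had 2.53 between them. *Hp1β* Δ/Δ replicate 1 stood apart to a lesser degree, with 9.84 against replicate 2 and 11.28 against replicate 3, which had 2.91 between them. With *Hp1α/γ* Δ/Δ ESCs set against set B, edgeR estimated a biological coefficient of variation of 0.184, and in the other comparisons of a mutant with its control 0.029 to 0.0681. In these bulk libraries a change in the share of cells that express a gene and a change in its RNA per cell cannot be told apart.

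In *wild-type* ESCs the 10 genes spanned a wide range of levels. On the scale of TPM, which accounts for transcript length and so allows genes to be compared, *Ddx4* was highest in set A with 12.9 ± 0.77 TPM (SD, n = 3), followed by *Piwil2* with 7.97 ± 0.85 TPM, *Tdrd5* with 5.67 ± 1.41 TPM and *Mael* with 4.85 ± 1.08 TPM. The ranges of *Tdrd5* and *Mael* overlapped, while those of *Ddx4* and *Piwil2* were apart from their neighbours. *Tdrd1* and *Mov10l1* overlapped with means of 1.203 and 1.05 TPM, and *Piwil4*, *Piwil1* and *Tdrd9* lay between 0.21 and 0.36 TPM with overlapping neighbours. *Asz1* was near the limit of detection everywhere: it had 0 to 8 counts in any library, had 0 counts in all libraries of 3 conditions, and was not tested in any comparison. A count of 0 allows up to 3 counts in that library, equal to 0.117 to 0.173 CPM by library depth, and covers counting error only. Between the *wild-type* sets none of the 8 genes tested was called, by edgeR or by DESeq2, where 5.68% of all genes tested were called by edgeR. At an unadjusted p under 0.05 there was 1 of the 8, against 35.6% of all genes tested.

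**Figure D1:**
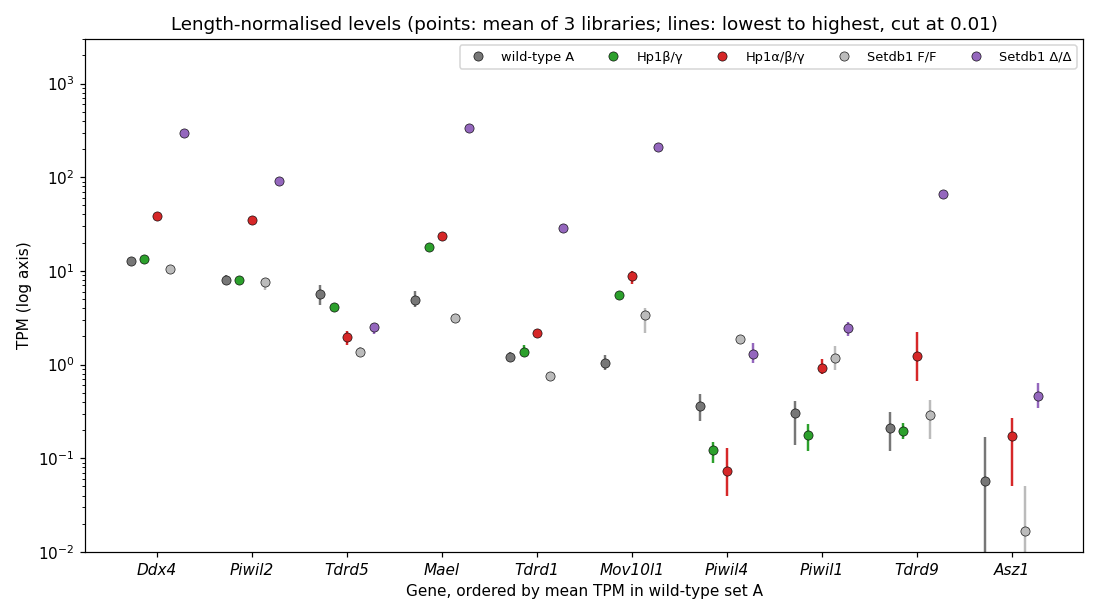
Level of each gene in TPM on a log axis, in wild-type set A, Hp1β/γ Δ/Δ, Hp1α/β/γ Δ/Δ, Setdb1 F/F and Setdb1 Δ/Δ libraries; points are means of 3 libraries and lines run from the lowest to the highest library, cut at 0.01. In Setdb1 Δ/Δ cells *Mael*, at 338.8 TPM, stands above *Ddx4*, at 294.5 TPM, which is the reverse of set A.

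In the GENCODE annotation of the GRCm38 build the 10 genes lie on 9 chromosomes. The annotation places *Mael* (ENSMUSG00000040629) at chr1:166201201-166238747 on the minus strand, *Ddx4* (ENSMUSG00000021758) at chr13:112598333-112652475 on the minus strand, *Piwil1* (ENSMUSG00000029423) at chr5:128702524-128755474 on the plus strand, *Piwil2* (ENSMUSG00000033644) at chr14:70372477-70429383 on the minus strand, *Piwil4* (ENSMUSG00000036912) at chr9:14696230-14740733 on the minus strand. It places *Tdrd1* (ENSMUSG00000025081) at chr19:56826209-56870012 on the plus strand, *Tdrd5* (ENSMUSG00000060985) at chr1:156255296-156303664 on the minus strand, *Tdrd9* (ENSMUSG00000054003) at chr12:111971559-112068854 on the plus strand, *Asz1* (ENSMUSG00000010796) at chr6:18050964-18109061 on the minus strand and *Mov10l1* (ENSMUSG00000015365) at chr15:88982909-89055152 on the plus strand. Counts were deposited per gene, over all of its annotated transcripts.

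The promoters of these genes differ in base composition and in the motifs they hold. RefSeq windows (GRCm38.p6) of 300 bases, from 250 before to 50 after the start, were at hand for 9 of the 10 genes, all but *Piwil2*, with the first start taken where RefSeq has several. Their CpG content, as observed over expected, ran from 0.43 in *Tdrd9* to 1.11 in *Tdrd5*, against a median of 0.384 over 32851 windows of all genes. A pair of short sequences known to be bound by E2F6- and MGA/MAX-type factors were searched, TCCCGC on both strands (its reverse complement is GCGGGA) and the palindrome CACGTG; they share no position. CACGTG lay in the windows of *Mael*, *Ddx4*, *Piwil1*, *Tdrd1*, *Tdrd9* and *Mov10l1*, 6 of 9, against 7.15% of all windows. TCCCGC lay in those of *Mael*, *Ddx4* and *Tdrd5*, 3 of 9, against 19.98% of all windows. Both sequences hold a CpG, and the shares of all windows are not matched for CpG content, which was above the median in each of the 9. *Piwil4* held neither, nor did *Asz1*. The windows of *Piwil1* (chr5:128735996-128736295) and *Tdrd5* (chr1:156303299-156303598) lie wholly inside the annotated genes, past their first annotated start in GENCODE. The matches of *Ddx4* also lie past its first annotated start. A match describes these letters and does not show binding. *Piwil1*, with 2 CACGTG matches, did not pass the threshold after loss of *Setdb1*. *Ddx4* rose after that loss, and the stretch of its window up to just past the first annotated start holds 0 matches and is left out below. The windows of 4 genes that rose strongly after loss of *Setdb1*, and that of *Piwil4*, which fell in CPM, are shown 5′ to 3′ on the strand of the gene, from 250 bases before the RefSeq start to at most 30 bases past the first annotated start, with matches in capitals.
*Mael*, chr1:166238718-166238994, minus strand: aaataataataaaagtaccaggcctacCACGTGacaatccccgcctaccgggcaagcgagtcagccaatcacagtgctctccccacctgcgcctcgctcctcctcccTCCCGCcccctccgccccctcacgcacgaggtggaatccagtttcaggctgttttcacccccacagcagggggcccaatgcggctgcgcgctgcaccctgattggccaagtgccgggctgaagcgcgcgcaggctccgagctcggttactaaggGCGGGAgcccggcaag
*Tdrd9*, chr12:111971309-111971588, plus strand: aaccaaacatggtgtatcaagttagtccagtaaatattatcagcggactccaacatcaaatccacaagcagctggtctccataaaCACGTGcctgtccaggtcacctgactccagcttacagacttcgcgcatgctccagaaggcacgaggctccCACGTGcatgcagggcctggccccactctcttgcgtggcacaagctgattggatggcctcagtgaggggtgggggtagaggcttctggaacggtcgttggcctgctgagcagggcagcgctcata
*Tdrd1*, chr19:56825959-56826238, plus strand: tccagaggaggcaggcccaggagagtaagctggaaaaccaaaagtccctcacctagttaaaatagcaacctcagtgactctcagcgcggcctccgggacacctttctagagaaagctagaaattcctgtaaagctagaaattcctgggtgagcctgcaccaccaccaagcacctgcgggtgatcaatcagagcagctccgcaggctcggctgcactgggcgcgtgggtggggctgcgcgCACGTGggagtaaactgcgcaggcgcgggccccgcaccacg
*Mov10l1*, chr15:88982744-88982938, plus strand: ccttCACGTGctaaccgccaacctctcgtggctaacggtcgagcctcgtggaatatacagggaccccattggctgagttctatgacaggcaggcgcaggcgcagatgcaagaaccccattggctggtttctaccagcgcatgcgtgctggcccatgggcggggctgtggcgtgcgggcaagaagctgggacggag
*Piwil4*, chr9:14740704-14740922, minus strand: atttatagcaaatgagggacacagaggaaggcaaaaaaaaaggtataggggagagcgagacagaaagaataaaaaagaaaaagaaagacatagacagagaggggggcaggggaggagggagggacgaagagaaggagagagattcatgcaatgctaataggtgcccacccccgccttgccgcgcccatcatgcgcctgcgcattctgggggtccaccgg

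*Setdb1* Δ/Δ cells were compared with *Setdb1* F/F ESCs to measure these genes after loss of the H3K9 methyltransferase. An effect of *Cre* delivery itself cannot be told apart from that loss here. Of 9 genes tested, *Tdrd9*, *Mael*, *Mov10l1*, *Tdrd1*, *Ddx4* and *Piwil2* rose, *Piwil4* fell, and *Piwil1* and *Tdrd5* did not pass the threshold. Over all genes tested, 18.5% rose and 11.4% fell, so 62% of calls were higher. In TPM the median log2 difference of all genes was itself 0.49 and 84.5% of calls were higher, and there the same 6 genes and *Piwil1* were called, all higher, and *Piwil4* was not. The median log2 fold change of the 9 genes was 4.33, against 0.015 over all genes tested. The summed level of the 10 genes went from 70.0 to 81.8 CPM in *Setdb1* F/F libraries to 1567 to 1628 CPM in *Setdb1* Δ/Δ libraries.

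*Tdrd9*, a Tudor-domain helicase that works with MIWI2, showed the largest fold change of the 10. Its 3 *Setdb1* F/F libraries had 0.40, 0.47 and 0.51 CPM, from 8 or 9 counts each, and the *Setdb1* Δ/Δ libraries 149.9, 150.2 and 156 CPM. All libraries of one genotype lay far above those of the other, 330.1-fold by the means, with a log2 FC of 8.37 ± 0.08 (adjusted p = 6.05e-22). The ± value here is too small for a fold change that starts from 8 or 9 counts per library. *Mael* had 2.99, 3.25 and 3.50 CPM in *Setdb1* F/F ESCs and 232, 248 and 253 CPM in *Setdb1* Δ/Δ cells, a 75.2-fold rise (log2 FC 6.24 ± 0.06, adjusted p = 9.08e-22). *Mov10l1*, the helicase that processes piRNA precursors, had 6.73, 8.13 and 9.75 CPM against 409, 414 and 419 CPM. This was a 50.4-fold rise (log2 FC 5.66 ± 0.05, adjusted p = 6.68e-22), from a *Setdb1* F/F level 3.74-fold that of *wild-type* set A.

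*Tdrd1*, the partner of MILI in germ granules, had 2.653, 2.775 and 3.0 CPM in *Setdb1* F/F ESCs and 74.5, 75.6 and 75.7 CPM after loss of *Setdb1*. The groups were 26.8-fold apart, with a log2 FC of 4.75 ± 0.07 (adjusted p = 1.25e-19). *Ddx4* had 22.7, 24.3 and 24.8 CPM against 466, 474 and 485 CPM, 19.8-fold higher (log2 FC 4.33 ± 0.03, adjusted p = 7.59e-23). *Piwil2*, the PIWI gene of MILI, had 23.3, 25.7 and 30.2 CPM against 225.7, 229.5 and 229.7 CPM, with a log2 FC of 3.13 ± 0.05 (adjusted p = 7.77e-19). The 6 genes that rose thus started from levels between 0.46 and 26.4 CPM, and *Ddx4* and *Piwil2*, the highest at the start, had the smallest fold changes of the 6. That order did not hold throughout, as *Mov10l1* started above *Tdrd1* and had the larger fold change.

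The other PIWI genes behaved differently from *Piwil2*. *Piwil4* had 3.55, 3.84 and 4.57 CPM in *Setdb1* F/F ESCs and 1.47, 1.75 and 2.26 CPM in *Setdb1* Δ/Δ cells, and every *Setdb1* Δ/Δ library lay below every control library. The log2 FC was -1.11 ± 0.20 (adjusted p = 8.64e-05), and -0.97 without *Setdb1* Δ/Δ replicate 2, which ends the call. In TPM *Piwil4* had 1.70 to 2.04 in *Setdb1* F/F ESCs and 1.04 to 1.71 in *Setdb1* Δ/Δ cells, ranges that overlap, and its log2 difference of -0.53 (limma adjusted p = 0.0608) was not called. *Piwil1* had 2.07, 2.55 and 3.78 CPM against 3.22, 4.77 and 4.81 CPM, ranges that overlap, with a log2 FC of 0.62 ± 0.22 (adjusted p = 0.0156), under the fold threshold. In TPM *Piwil1* had a log2 difference of 1.03 (limma adjusted p = 0.00686), just over the threshold and beside the median of 0.49 of all genes on that scale. *Tdrd5*, the Tudor protein needed for pachytene piRNAs, had 3.15, 3.25 and 4.06 CPM against 3.82, 4.15 and 4.64 CPM, and a log2 fold change of 0.29 (adjusted p = 0.118). *Asz1* had 0 or 1 count in the control libraries and 3, 6 and 8 counts in *Setdb1* Δ/Δ cells, too few to be tested.

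Markers of other cell states moved in the same libraries. Of 9 later germ cell markers 4 could be tested and all 4 rose, with *Dazl* at 11.6 CPM in *Setdb1* F/F ESCs and 1091 CPM in *Setdb1* Δ/Δ cells, *Stra8* at 7.37 and 507.5 CPM and *Sycp3* at 4.02 and 119 CPM. Their summed level went from 62.1 to 62.6 CPM to 1807 to 1875 CPM, while *Tnp1*, a defining gene of spermatids, had 0 counts in all libraries of both genotypes and *Prm1* and *Prm2* had 0.04 CPM or less. Among 7 primordial germ cell markers 1 rose and 1 fell, and their sum ran from 189 to 199 CPM and from 158 to 171 CPM. The summed level of 7 2-cell-like markers went from 0.06 to 0.20 CPM in the control to 50.6 to 55.8 CPM. Feeder fibroblast markers summed to 10.2 to 11.46 CPM and 4.58 to 5.72 CPM, and of 6 primitive endoderm markers 1 rose and 2 fell. The part of these cell states in the levels of the piRNA genes was not tested.

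**Figure D2:**
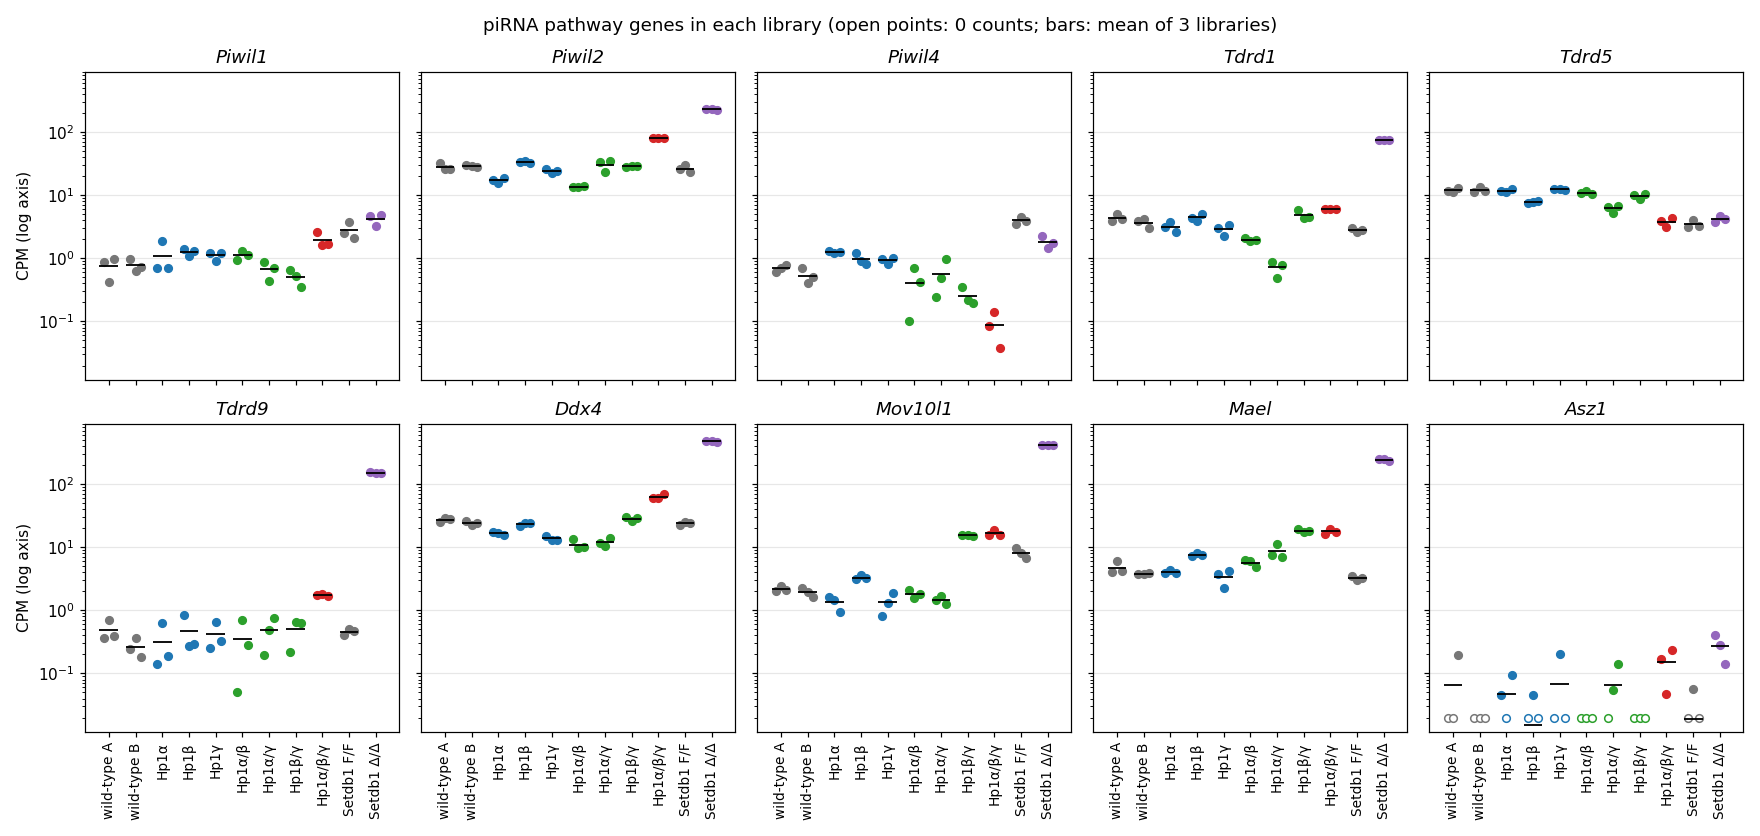
CPM of each gene on a log axis in every library of the 11 conditions; points are libraries, bars are means of 3, and open points mark 0 counts. *Tdrd9*, *Mael*, *Mov10l1*, *Tdrd1*, *Ddx4* and *Piwil2* are highest in Setdb1 Δ/Δ libraries, *Mael* and *Mov10l1* are also raised in Hp1β/γ Δ/Δ libraries, and *Piwil4* is lowest in the triple mutant.

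To measure these genes after loss of all 3 HP1 proteins, the triple mutant was compared with *wild-type* set A. This comparison also carries the floxed *Hp1γ* allele and the recent transfection of *Cre*, which cannot be told apart here from that loss. The paper's legend names floxed cells given a control vector beside those given *Cre*, while the deposited control of the triple mutant is set A. Of 9 genes tested 6 rose, *Mov10l1*, *Mael*, *Tdrd9*, *Piwil2*, *Piwil1* and *Ddx4*, and 2 fell, *Piwil4* and *Tdrd5*. In this comparison 25.1% of all genes tested rose and 17.1% fell, so a large share of the transcriptome was called and 59.5% of calls were higher. In TPM, where the median log2 difference of all genes was 0.41 and 77.3% of calls were higher, the same 6 genes were higher and the same 2 lower. The median log2 fold change of the 9 was 1.40, against 0.035 over all genes tested. The 10 genes summed to 79.9 to 82.0 CPM over the libraries of set A and to 187 to 197 CPM over those of the triple mutant, far below that of *Setdb1* Δ/Δ cells.

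*Mov10l1* had 2.04, 2.13 and 2.41 CPM in set A and 15.7, 15.8 and 18.7 CPM in the triple mutant, 7.64-fold higher by the means (log2 FC 2.96 ± 0.14, adjusted p = 2.14e-13). *Mael* had 4.07, 4.17 and 5.98 CPM against 16.4, 17.6 and 19.3 CPM, with a log2 FC of 1.94 ± 0.13 (adjusted p = 9.9e-11). For both genes the lowest mutant library lay well above the highest control library. *Tdrd9* had 0.37, 0.39 and 0.69 CPM, or 8 to 15 counts, against 1.66, 1.76 and 1.81 CPM, with a log2 FC of 1.87 ± 0.37 (adjusted p = 0.000155). *Piwil2* had 26.13, 26.17 and 32.99 CPM against 79.7, 79.8 and 81.2 CPM (log2 FC 1.53 ± 0.07, adjusted p = 1.17e-13), and *Ddx4* had 25.4, 27.7 and 28.7 CPM against 59.4, 60.8 and 68.6 CPM (log2 FC 1.25 ± 0.07, adjusted p = 1.29e-12). The groups of all these genes were apart.

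*Piwil1* stood at low counts in both groups, with 9, 19 and 20 counts in set A and 34, 43 and 60 in the triple mutant. In CPM these were 0.42 to 0.97 and 1.62 to 2.57, which do not overlap, and the log2 FC was 1.40 ± 0.36 (adjusted p = 0.00166). *Tdrd1* had 3.93, 4.17 and 4.96 CPM against 5.99, 6.05 and 6.11 CPM, apart but with a log2 FC of 0.51 ± 0.16 (adjusted p = 0.00614), under the fold threshold. *Tdrd5* went the other way, from 11.1, 11.8 and 13.2 CPM to 3.14, 3.95 and 4.41 CPM, with a log2 FC of -1.60 ± 0.15 (adjusted p = 5.66e-09). *Piwil4* had 13, 15 and 16 counts in set A and 1, 2 and 3 counts in the triple mutant. The ratio of its summed counts, scaled by library totals, was 0.151, with a 95% exact (Clopper-Pearson) interval of 0.0525 to 0.355 for counting error, and edgeR's adjusted p was 0.000183. The triple mutant had the lowest mean of *Piwil4* and the second highest mean of *Piwil2* among the 11 conditions. With at least 10 counts required in every library, 5 of the genes were called.

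In the triple mutant ESC markers fell and other markers moved. Of 7 ESC markers 4 fell and of 5 tested primitive endoderm markers 4 rose, the sum of the latter list being 6.95 to 8.93 CPM without the mutations and 17.5 to 19.5 CPM in the mutant. The 7 2-cell-like markers had 0 counts in all libraries of set A and summed to 13.7 to 15.6 CPM, whereas feeder fibroblast markers summed to 23.3 to 24.1 CPM and 9.32 to 10.4 CPM. Of the 9 later germ cell markers, 4 were tested and *Dazl* alone rose, from 2.14 to 7.55 CPM, with the list summing to 40.9 to 43.0 CPM and 52.2 to 53.4 CPM. Of 6 tested primordial germ cell markers 1 rose and 2 fell, with the list summing to 107 to 108 CPM and 146 to 149 CPM. Whether these changes in cell state bear on the piRNA genes was not tested.

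*Hp1α/β* Δ/Δ ESCs, the parent genotype of the triple mutant apart from the floxed *Hp1γ*, showed the opposite direction for part of the set. Against set A, *Ddx4*, *Tdrd1* and *Piwil2* fell, 3 of 8 tested, where 5.19% of all genes fell and 2.96% rose. *Ddx4* had 9.59, 10.1 and 13.2 CPM (log2 FC -1.32 ± 0.10, adjusted p = 1.35e-08), *Tdrd1* had 1.87, 1.93 and 2.11 CPM (log2 FC -1.15 ± 0.21, adjusted p = 0.000284) and *Piwil2* had 13.5, 13.7 and 13.9 CPM (log2 FC -1.06 ± 0.09, adjusted p = 6.25e-08). Every *Hp1α/β* Δ/Δ library lay below every library of set A for these 3 genes. The call of *Piwil2* was lost without set A replicate 1 (log2 fold change -0.94), and that of *Tdrd1* with set B as the control (-0.90). *Mael* and *Mov10l1* had log2 fold changes of 0.26 and -0.27 and were not called.

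The triple mutant was also set against *Hp1α/β* Δ/Δ ESCs. This comparison carries the loss of *Hp1γ* together with the floxed *Hp1γ* allele and the recent transfection of *Cre*, which cannot be told apart here. Of 8 genes tested 6 rose, *Mov10l1*, *Piwil2*, *Ddx4*, *Tdrd9*, *Mael* and *Tdrd1*, and *Tdrd5* fell, where 25.4% of all genes tested rose and 16% fell, or 61.5% of calls higher. In TPM, with a median of 0.44 and 80.4% of calls higher over all genes, *Tdrd9* (1.35, limma adjusted p = 0.202) was not called and *Piwil1* (1.01, limma adjusted p = 0.00625) was. *Mov10l1* had a log2 fold change of 3.23 (standard error 0.15), *Piwil2* of 2.58 (0.06), *Ddx4* of 2.56 (0.10) and *Tdrd9* of 2.27 (0.50), with standard errors in parentheses. *Tdrd1*, which stayed under the threshold against set A, rose by 1.64 (standard error 0.18, adjusted p = 3.86e-07), and *Mael* by 1.67 (0.12). *Piwil1* had 0.80 (adjusted p = 0.026) and was not called, and *Piwil4*, with 2, 9 and 17 counts in *Hp1α/β* Δ/Δ ESCs, was not tested. The comparisons with set A and with *Hp1α/β* Δ/Δ ESCs share the triple mutant libraries and are not independent.

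Among double mutants, *Hp1β/γ* Δ/Δ ESCs showed a rise of *Mov10l1* and *Mael* alone among the 7 genes tested against set B, where 7.32% of all genes rose and 4.54% fell. *Mov10l1* had 15.2, 15.5 and 15.6 CPM against 1.601, 1.971 and 2.27 CPM in set B (log2 FC 2.99 ± 0.13, adjusted p = 4.31e-11). *Mael* had 17.3, 18.0 and 19.08 CPM against 3.72, 3.75 and 3.84 CPM (log2 FC 2.27 ± 0.10, adjusted p = 6.68e-11). For both genes these levels lay beside those of the triple mutant, given above, although a test between these mutants was not made. *Ddx4*, *Piwil2* and *Tdrd1* had log2 fold changes of 0.23, -0.01 and 0.42 and were not called, and the summed level of the 2-cell-like markers was 42.7 to 43.3 CPM, against 0.05 to 0.18 CPM in set B. *Piwil4* had 5, 5 and 8 counts, against 9, 11 and 14 in set B, and was not tested.

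*Hp1α/γ* Δ/Δ ESCs had a different pattern, and 1 library decides most of it. Of 8 genes tested *Mael* rose and *Tdrd1*, *Ddx4* and *Tdrd5* fell, where 6.75% of all genes rose and 16.3% fell, or 29.2% of calls higher. In TPM, with a median log2 difference of -0.38 and 14.2% of calls higher over all genes, the same 3 genes were lower and *Mael* (0.72, limma adjusted p = 0.017) was not called. *Tdrd1* had 0.49, 0.79 and 0.88 CPM against 2.97, 3.85 and 4.17 CPM in set B, the lowest level of *Tdrd1* in any condition (log2 FC -2.36 ± 0.29, adjusted p = 0.000725). *Mael* had 6.90, 7.49 and 11.4 CPM, the last in replicate 2, and a log2 FC of 1.14 ± 0.20 (adjusted p = 0.00354). In TPM the same libraries had 6.07, 6.69 and 6.72 against 3.84 to 3.99 TPM in set B. *Ddx4* and *Tdrd5* had log2 fold changes of -1.036 ± 0.155 and -1.003 ± 0.169 (adjusted p = 0.0017 and 0.00286). Without *Hp1α/γ* Δ/Δ replicate 2 only *Tdrd1* was called, while *Mael*, *Ddx4* and *Tdrd5* had 0.93, -0.90 and -0.86. With DESeq2 on all 6 libraries 2 genes were called. Feeder fibroblast markers summed to 41.4 to 50.0 CPM in set B and 9.79 to 11 CPM in *Hp1α/γ* Δ/Δ libraries, with *Postn* and *Twist2* at 0 counts in the latter, and their part in these levels was not tested.

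A direct test of *Hp1α/γ* Δ/Δ against *Hp1β/γ* Δ/Δ ESCs, which share the loss of *Hp1γ*, called *Mov10l1*, *Tdrd1*, *Ddx4* and *Mael* lower in the former, 4 of 8 tested, where 17.5% of all genes were lower and 6.42% higher, or 26.9% of calls higher (15.9% in TPM, with a median of -0.33 over all genes and the same 4 genes called). The log2 differences were -3.43 (standard error 0.14) for *Mov10l1*, -2.78 (0.27) for *Tdrd1*, -1.27 (0.15) for *Ddx4* and -1.13 (0.18) for *Mael*. Without *Hp1α/γ* Δ/Δ replicate 2 the count was again 4, and without replicate 3 *Mael* had -0.999, just under the threshold.

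No gene of the set was called in any single mutant against set A, by edgeR or by DESeq2, with 8 tested in each. At an unadjusted p under 0.05 there were 5 of 8 in each, where 51.7% of all genes tested had such a p after loss of *Hp1α*, 56.8% after loss of *Hp1β* and 52.6% after loss of *Hp1γ*, so these counts stand near the background. Of all genes tested, 4.87% were called in either direction after loss of *Hp1α*, 9.1% after loss of *Hp1β* and 5.59% after loss of *Hp1γ*. The change nearest to the threshold was that of *Ddx4* in *Hp1γ* Δ/Δ ESCs, at 12.9, 13.2 and 15.2 CPM (log2 FC -0.99 ± 0.08, adjusted p = 1.52e-08), and the call was made without *Hp1γ* Δ/Δ replicate 1 (-1.06) or set A replicate 1 (-1.04). In TPM *Ddx4* (-1.01, limma adjusted p = 0.00115) and *Mov10l1* (-1.06, limma adjusted p = 0.0465) passed the threshold in *Hp1γ* Δ/Δ ESCs. The 8 genes gave no call in *Hp1β* Δ/Δ ESCs with any library left out, replicate 1 included. *Ddx4* and *Piwil2* had -0.73 and -0.71 in *Hp1α* Δ/Δ ESCs, and *Mael*, at 7.14, 7.43 and 8.21 CPM, had 0.66 in *Hp1β* Δ/Δ ESCs. Between the single mutants, *Mov10l1* was higher in *Hp1β* Δ/Δ than in *Hp1α* Δ/Δ ESCs (log2 difference 1.27, standard error 0.26, adjusted p = 0.00227; in TPM 1.10, limma adjusted p = 0.0611), where 2.6% of all genes were higher and 3.48% lower. *Mov10l1* and *Mael* were lower in *Hp1γ* Δ/Δ than in *Hp1β* Δ/Δ ESCs, by log2 differences of -1.26 and -1.14, where 1.8% of all genes were lower and 2.06% higher. The latter call of *Mael* was lost without *Hp1γ* Δ/Δ replicate 2 (-0.90). None of the 8 was called between *Hp1γ* Δ/Δ and *Hp1α* Δ/Δ ESCs by either tool, where 1.65% of all genes were called by edgeR. At an unadjusted p under 0.05 there were 2 of the 8, against 30.1% of all genes.

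**Figure D3:**
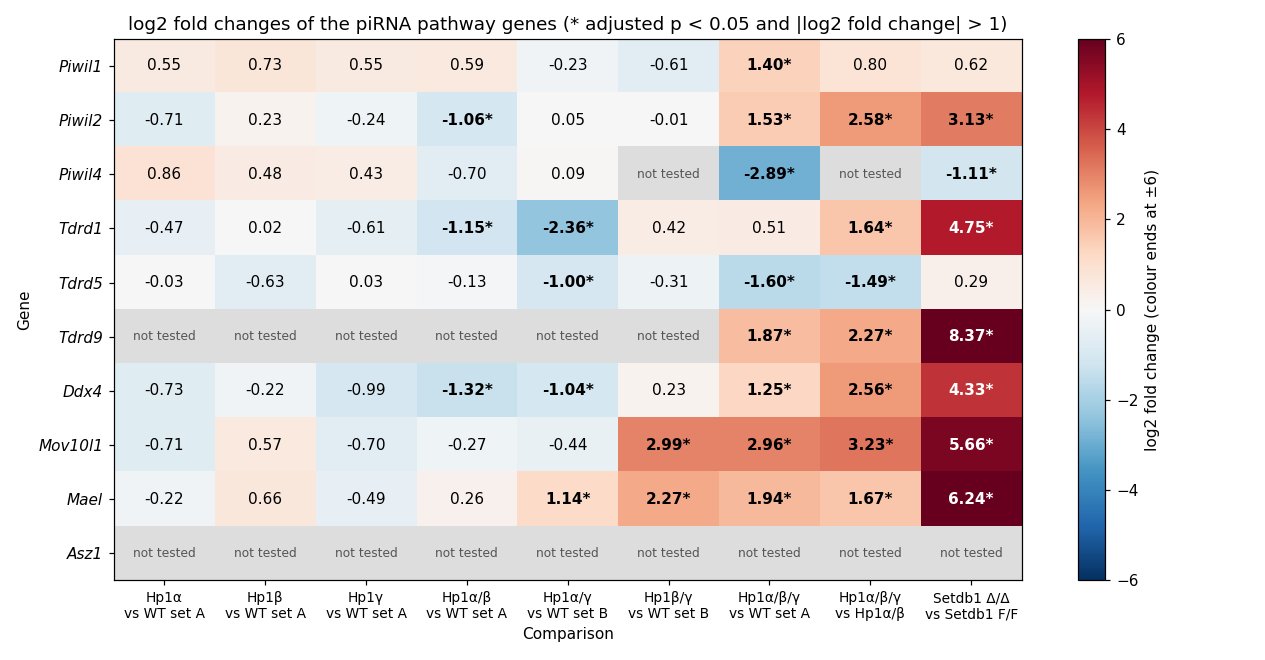
log2 fold change of each gene (rows) in 9 comparisons (columns), red for higher and blue for lower in the mutant; asterisks mark an adjusted p under 0.05 with an absolute log2 fold change over 1, and grey cells were not tested. *Mael* and *Mov10l1* are marked higher in the Hp1β/γ Δ/Δ, triple and Setdb1 Δ/Δ columns, and no cell is marked in the 3 single mutants.

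The triple mutant and *Setdb1* Δ/Δ cells each have their own control, and the difference of their effects was tested over these 12 libraries. Both effects carry the delivery of *Cre*, and that of the triple mutant also the floxed *Hp1γ* allele. For 8 of 9 genes the effect was lower, or more negative, in the triple mutant, where 16.5% of all genes tested had a lower and 15.4% a higher effect. The log2 difference was -6.54 (standard error 0.40) for *Tdrd9*, -4.33 (0.17) for *Mael*, -4.27 (0.15) for *Tdrd1*, -3.11 (0.08) for *Ddx4*, -2.72 (0.19) for *Mov10l1* and -1.62 (0.10) for *Piwil2*. *Tdrd5* (-1.92) and *Piwil4* (-1.80, and -0.87 in TPM with a limma adjusted p of 0.0828, not called) also differed, and *Tdrd5* was called in the triple mutant alone. *Piwil1* had a difference of 0.76 (standard error 0.43, adjusted p = 0.126), which leaves its effects in these cells not shown to differ. The controls are not alike for all genes: *Piwil4*, *Mov10l1* and *Piwil1* were 5.77-, 3.74- and 3.71-fold higher in *Setdb1* F/F ESCs than in set A, and *Tdrd5* was 3.45-fold lower, by means and without a test.

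Of 25 other genes of the piRNA pathway, 22 were tested in the triple mutant, where 8 rose and 4 fell, and 21 in *Setdb1* Δ/Δ cells, where 13 rose and none fell. Over all genes tested, 25.1% rose and 17.1% fell in the triple mutant, and 18.5% rose and 11.4% fell in *Setdb1* Δ/Δ cells. The median log2 fold changes of this list were 0.28 and 2.13, against 0.035 and 0.015 over all genes. In *Setdb1* Δ/Δ cells *Stk31*, a Tudor-domain kinase-like gene, rose from 8.57 to 253 CPM (log2 FC 4.89 ± 0.05), *Tdrkh*, whose product anchors PIWI proteins at mitochondria, from 4.39 to 113 CPM (4.71 ± 0.06), and *Btbd18*, a regulator of pachytene piRNA loci, from 2.92 to 74.7 CPM (4.69 ± 0.07). *Tex15*, a partner of MILI in transposon silencing, rose from 24.2 to 408 CPM (4.09 ± 0.04), and *Tex19.1* from 20.8 to 248 CPM. *Henmt1*, the methyltransferase of piRNA ends, had 0.02 CPM in *Setdb1* F/F ESCs and 4.64 CPM in *Setdb1* Δ/Δ cells.

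In the triple mutant *Fkbp6* rose from 0.14 to 8.38 CPM, *Btbd18* from 1.76 to 11.49 CPM, *Gpat2* from 0.94 to 6.09 CPM, and *Stk31* from 2.75 to 14.8 CPM. *Tdrd12*, a further Tudor-domain gene, went from 150.4 to 49.8 CPM (log2 fold change -1.56) but from 65.8 to 45.6 TPM, where it was not called. *Gtsf1*, a cofactor of PIWI slicing, went from 4.26 to 0.90 CPM and from 120.9 to 21.5 TPM in the triple mutant, and from 6.02 to 20.9 CPM and from 2.72 to 19.7 TPM in *Setdb1* Δ/Δ cells. Between the *wild-type* sets its scales went opposite ways, with 4.26 CPM and 120.9 TPM in set A but 21.5 CPM and 9.46 TPM in set B, so no direction is read from *Gtsf1*. In TPM 8 of the list were called higher and 2 lower in the triple mutant, and 13 higher and 1 lower in *Setdb1* Δ/Δ cells. *Gpat2* was also higher in *Hp1β/γ* Δ/Δ ESCs (3.54), where 5 of 20 of the list rose and 1 fell (7.32% and 4.54% of all genes), and in *Hp1α/γ* Δ/Δ ESCs (1.85), where 6 of 20 rose and 2 fell (6.75% and 16.3% of all genes). In *Hp1α/β* Δ/Δ ESCs 3 of 19 rose and 2 fell, where 2.96% and 5.19% of all genes did. In *Hp1β* Δ/Δ ESCs 3 of 20 rose and 4 fell, and in *Hp1α* Δ/Δ and *Hp1γ* Δ/Δ ESCs 1 of 19 and 1 of 18 rose, where 9.1%, 4.87% and 5.59% of all genes were called in either direction. *Dnmt3c* and *Nanos2* were at or near 0 and were not tested in any of these comparisons.

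**Figure D4:**
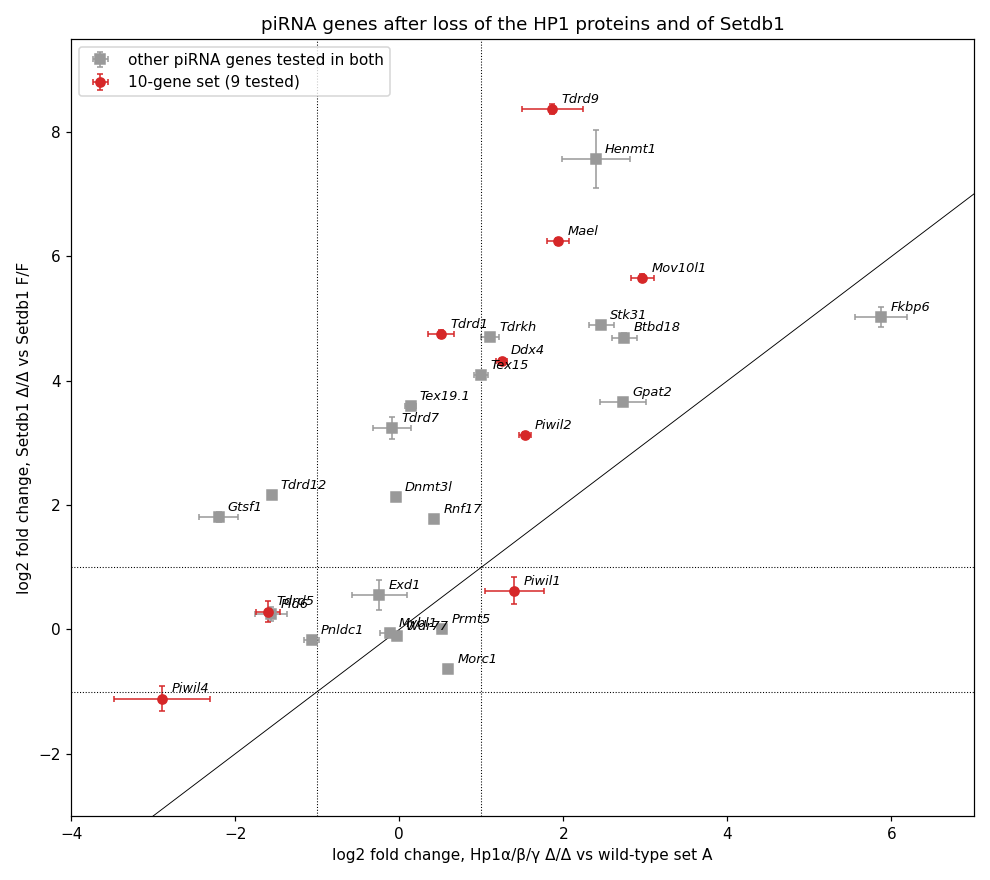
log2 fold change in Setdb1 Δ/Δ cells (vertical axis) against that in Hp1α/β/γ Δ/Δ cells (horizontal axis) for the genes tested in both. The 10-gene set is shown as red circles and the other piRNA genes as grey squares. Bars are approximate standard errors, which understate the counting error of large rises from few counts. Dotted lines mark log2 fold changes of -1 and 1, and the solid line marks equal effects. *Tdrd9*, *Mael*, *Tdrd1*, *Ddx4*, *Mov10l1* and *Piwil2* lie above the line, while *Piwil1* lies below it with a difference that was not called.

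Of 15 genes for factors that silence germline genes or are targeted here, 5 fell and 1 rose in the triple mutant. Over all genes tested there, 17.1% fell and 25.1% rose. Those that fell in the triple mutant, other than the deleted genes *Cbx1* and *Cbx3*, were *Dnmt3b*, from 617 to 187 CPM, *Ehmt1*, from 164 to 52.0 CPM, and *Dnmt1*, from 391 to 169 CPM. *Mga*, the scaffold of PRC1.6, rose from 442 to 1041 CPM. In *Setdb1* Δ/Δ cells *Ehmt2* fell from 223 to 75.9 CPM and *E2f6* rose from 31.0 to 64.6 CPM. In TPM *Dnmt1* in the triple mutant (-0.81) and *Ehmt2* in *Setdb1* Δ/Δ cells (-0.98) were under the fold threshold. *Setdb1* itself had a log2 fold change of -0.52 in the triple mutant. The part of these factors in the levels of the piRNA genes was not tested.

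Over the 11 means of log2 CPM, *Mael*, *Ddx4*, *Piwil2*, *Tdrd1*, *Tdrd9* and *Mov10l1* ran together. Pearson's r ran from 0.813 to 0.953 over their 15 pairs. These 6 are the genes called higher after loss of *Setdb1*, and *Setdb1* Δ/Δ cells are the highest point for all 6. A high r therefore follows in part from that choice. The r of *Tdrd5* with these 6 was negative, from -0.654 to -0.335, which alone does not show opposite responses. After loss of *Setdb1* the log2 fold change of *Tdrd5* was 0.29, not called. Its mean was already 3.45-fold lower in *Setdb1* F/F ESCs than in set A, without a test. In the triple mutant *Tdrd5* did fall (-1.60), while *Mov10l1*, *Mael*, *Tdrd9*, *Piwil2* and *Ddx4* rose. In *Hp1β/γ* Δ/Δ ESCs *Mael* and *Mov10l1* rose while *Ddx4*, *Piwil2* and *Tdrd1* were not called. The r values are descriptions over 11 points that share the controls. Among 17528 genes searched, the pattern of *Tdrd1* was most like that of *Rbm46* (r = 0.987), a germ cell RNA-binding protein gene, and *Pogk* (0.979), that of *Ddx4* like *Rnf17* (0.983), itself a Tudor-domain gene of the pathway, and *Adamts17* (0.981), and that of *Mov10l1* like *Mmp1b* (0.989) and *Sycp2* (0.983), a gene of the meiotic chromosome axis. *Mael* was most like *Trim68* (0.972) and *Gm19127* (0.97), *Tdrd9* like *Gm7980* (0.992) and *8030455M16Rik* (0.991), and *Piwil2* like *Gm4740* (0.98) and *Gm7061* (0.97). Some of these genes were near the floor: *Gm19127*, *Gm7980*, *8030455M16Rik* and *Mmp1b* had at most 0.39 CPM in set A, the triple mutant and *Setdb1* F/F ESCs. In *Setdb1* Δ/Δ cells they had 1.04, 5.29, 9.87 and 13.5 CPM, in that order. *Tdrd5* was most like *Arhgef25* (0.971) and *Phc1* (0.968), a Polycomb gene at 859 CPM in set A and 401 CPM in the triple mutant. *Phc1* was also low in both *Setdb1* F/F ESCs (360 CPM) and *Setdb1* Δ/Δ cells (362 CPM). The genes nearest to *Piwil1* were *Enpp4* (0.97) and *Vmn2r-ps102* (0.968), and those nearest to *Piwil4* were *Gm36501* (0.961) and *Gm44832* (0.95).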

How the data were processed

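RNA-seq of 33 ESC libraries was analysed from 8 tables, 1 for each mutant with its control. The expected counts deposited by the authors are estimated read counts per gene without normalization, and the TPM values deposited by the authors are scaled by transcript length and library size. The submitters' processing notes name TopHat2 2.1.1, RSEM, edgeR and GRCm38.p5. The tables also hold the authors' log2 fold changes, p-values and annotation, which were not used here. Counting by strand is not given in the sources used here, so reads of *Piwil4*, *Tdrd5*, *Tdrd9*, *Piwil1*, *Piwil2* and *Mov10l1* can include those of overlapping annotated genes, each of which had a mean of at most 0.0657 CPM in every condition.

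Expected counts were rounded to whole numbers. Each comparison was fitted on its 6 libraries (12 for the difference of 2 effects) in edgeR 4.0.16 (R 4.3.3), with filterByExpr at a minimum count of 10, TMM scaling, glmQLFit and glmQLFTest, and p-values were adjusted by Benjamini-Hochberg over all genes tested. CPM came from TMM scaling of all 33 libraries, and log2 CPM for likeness had a prior count of 1. Identifiers were matched to GENCODE M21 (GRCm38) for 55141 of 55487 genes, and promoter windows are from RefSeq (GRCm38.p6). The steps were tested on simulated data with 200 changed genes. Same-numbered libraries did not deviate together. Alternatives were RLE size factors, DESeq2 1.42.0, other count filters, no fold threshold, a joint fit, a block on replicate number, set A in place of set B or the reverse, and each library left out, with limma 3.58.1 on log2(TPM + 0.1) of the same genes added after seeing the data.

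Named genes are the 10 genes of the set, genes of the other piRNA list called in the triple mutant or *Setdb1* Δ/Δ cells, silencing factors, markers, and for each of the 10 with at least 1 CPM in some condition the 2 genes of highest r. The genes, lists and motifs were chosen with earlier results of these data known. At the lowest depth, genes near 10 counts are at the edge of what can be called.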

Additional observations from a re-analysis of the deposited data

Results flagged for a closer look

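For 8 of the 9 genes tested, the effect in the triple mutant and that in *Setdb1* Δ/Δ cells differed in the test of the difference itself (edgeR's quasi-likelihood test over 12 libraries). Over all genes tested, 16.5% had a lower and 15.4% a higher effect in the triple mutant. The controls of these effects also differ in level for some of the genes, as given above. The log2 difference, triple mutant minus *Setdb1* loss, was -4.33 for *Mael*, -3.11 for *Ddx4*, -1.62 for *Piwil2*, -1.80 for *Piwil4*, -4.27 for *Tdrd1*, -1.92 for *Tdrd5*, -6.54 for *Tdrd9* and -2.72 for *Mov10l1*. The call of *Piwil4* was lost without *Hp1α/β/γ* Δ/Δ replicate 3 (-1.40, adjusted p = 0.0543) and with limma on log2 TPM (-0.87, adjusted p = 0.0828), and the other 7 were called with each library left out and with limma on log2 TPM. Libraries that stand apart were not sought by a formal test, since each condition has 3.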

How the results depend on the processing

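With the replicate block no count of called piRNA genes moved by over 1.5 times: 8 of the 10-gene set in the triple mutant, 7 in *Setdb1* Δ/Δ cells, 2 in *Hp1β/γ* Δ/Δ and 4 in *Hp1α/γ* Δ/Δ ESCs were called with it. The labels' replicate numbers do not pair libraries, since the correlation of same-numbered deviations ran from -0.128 to 0.07 over 14 comparisons, and in 3 of these every library correlated best with its own number. No called change of the 10 genes reversed under the alternatives run, while *Gtsf1* between the wild-type sets did so in TPM (limma log2 difference -3.68). Without the fold threshold, counts of the set called became 2, 4 and 3 in *Hp1α*, *Hp1β* and *Hp1γ* single mutants, 4 in *Hp1β/γ* Δ/Δ ESCs, and 5, 1 and 6 for *Hp1β* against *Hp1α*, *Hp1γ* against *Hp1α* and *Hp1γ* against *Hp1β*, while the other piRNA genes called became 13, 12, 14 and 13 in *Hp1α*, *Hp1γ*, *Hp1α/β* and *Hp1β/γ* mutants. By that rule 45%, 51.1%, 46.7%, 43.4% and 51.7% of all genes were called in *Hp1α*, *Hp1β*, *Hp1γ*, *Hp1α/β* and *Hp1β/γ* mutants, and 39.6%, 18.7% and 31% in the 3 comparisons between single mutants, in the order above. With limma on log2 TPM, chosen after seeing the data, the set had 2 calls in *Hp1γ* Δ/Δ ESCs and 0 for *Hp1β* against *Hp1α* (edgeR 1), and the other piRNA genes 0 in *Hp1γ* Δ/Δ ESCs. The set's 4 calls in *Hp1α/γ* Δ/Δ ESCs became 2 with RLE size factors, 2 with DESeq2 and 2 with set A as the control. With set B as its control, *Hp1α* Δ/Δ ESCs had 1 (*Piwil4*, higher, log2 fold change 1.24). With at least 10 counts in every library the triple mutant had 5, since *Piwil1*, *Piwil4* and *Tdrd9* do not pass that filter. The joint fit gave 2 other piRNA genes in *Hp1α* and 2 in *Hp1γ* mutants. Leaving out a library gave 1 to 4 calls of the set in *Hp1α/γ* Δ/Δ ESCs, 0 to 1 in *Hp1γ* Δ/Δ ESCs, 1 to 2 for *Hp1β* against *Hp1α* and 1 to 2 for *Hp1γ* against *Hp1β*, and for the other piRNA genes 1 to 2 in *Hp1α*, 0 to 2 in *Hp1γ* and 3 to 6 in *Hp1α/β* mutants. The counts of the set moved by over 1.5 times without *Hp1α/γ* replicate 2, *Hp1γ* replicates 1 or 3 or set A replicate 1, *Hp1α* replicate 3, and *Hp1γ* replicate 2, in that order of comparisons. Those of the other piRNA genes did so without *Hp1α* replicate 2 or set A replicate 1 (2 each), without *Hp1γ* replicate 1 or set A replicate 2 (2 each) or *Hp1γ* replicate 2 (0), and without *Hp1α/β* replicate 3 (3). The causes were not tested, apart from the filter. Depth limits *Asz1*, *Piwil4* and, outside the triple mutant and *Setdb1* Δ/Δ cells, *Tdrd9*.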
